A study of Talaromyces pinophilus with 6 samples.

Results

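Oxidoreductases are enzymes that move electrons between molecules. In the filamentous fungus *Talaromyces pinophilus*, 11632 genes were listed in at least 1 of the 6 RNA libraries. The genes described here are 62 oxidoreductase genes, 58 of them among those 11632. They were selected on measured values, since they come from the study's list of genes that differed between these same libraries, by an unadjusted p and a fold change of FPKM (a count of fragments scaled by gene length and by library size). The rows at hand were 1998, a part of that list, and genes outside them were not searched for members. Of these 1998 rows, 95 had dehydrogenase, reductase, oxidase, oxygenase or cytochrome P450 in the annotation. From these, 5 transcription factor or carbohydrate-active enzyme genes, 23 short-chain dehydrogenases, and 5 others (squalene monooxygenase, mitochondrial annotations and a run of neighbouring monooxygenase genes) were left out. Of the 62 members, 4 (*TP00695*, *TP05427*, *TP02103* and *TP02733*) were listed in no library and were not analysed here. The other 58 were listed in at least 1 library, and 51 of these had an FPKM of 1 or more in 3 or more libraries and were fitted. Because the members were chosen by this contrast, their changes are given as a description, with no p-value.

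The strain Δ*TP05746* lacks *TP05746*, a gene for a zinc cluster transcription factor, and was made in the strain Δ*TpKu70*, which is the parent it is set against here. Both strains therefore lack *TpKu70*, a gene of DNA end joining whose loss makes targeted deletion easier. Mycelium of each strain, grown first on glucose, was moved to 1% (w/v) soluble corn starch and sampled at 12 h, with 3 RNA libraries per strain. Whether they were grown as separate cultures is not given in the sources used here. The SD values then measure the spread between libraries, which may be technical in part. The calls rest on a spread that the test estimated from the same libraries.

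As background, dehydrogenases and reductases pass electrons to or from the cofactors NAD(H) and NADP(H), while oxidases and oxygenases use molecular oxygen as the acceptor or insert it into the substrate. In filamentous fungi these enzymes carry the end of sugar fermentation, the breakdown of proline, amines and fatty acids as sources of nitrogen or carbon, the supply of NADPH for biosynthesis and protection from oxidants, and, through many cytochrome P450 enzymes, the making of secondary metabolites.

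The libraries held between 4091718 and 4696455 expected counts, the fragments that the counting program RSEM assigned to genes, with decimals where fragments were shared between gene models. Values below are in CPM, the counts of a gene per 1000000 counts of the library total after that total was scaled with a TMM factor (from a trimmed mean of the gene ratios between libraries), unless FPKM is named. *TP05746* had 0 counts in all 3 Δ*TP05746* libraries, and 135, 42 and 28 in the Δ*TpKu70* libraries. Δ*TpKu70* replicate 1 stood apart from the other two: its correlation with them over log2 CPM was 0.898 and 0.890, against 0.966 between replicates 2 and 3. Scaling by library totals in place of TMM moved the median log2 fold change of all fitted genes to 0.85, against 0.03 with TMM, and changes are given relative to the TMM scale. These are RNA levels of whole mycelium, in which fewer cells of a type and less RNA per cell cannot be told apart.

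Of the 51 fitted members, 37 (72.5%) were lower in Δ*TP05746* and 11 (21.6%) were higher, with the threshold set in edgeR's quasi-likelihood test at an adjusted p no larger than 0.05 and a log2 fold change no smaller than 1 in size. Among all 8522 genes fitted, 38.7% passed this threshold, 20.5% lower and 18.2% higher. Among the 1542 rows of the study's list that were fitted, 89.2% passed, 46.9% lower and 42.3% higher. The rule used this contrast, so nothing is read from the difference. With library totals in place of TMM the split of members was 24 lower and 12 higher, and with limma on log2(FPKM + 1) it was 24 and 13; over all genes fitted 1059 were lower and 3290 higher with library totals and 1069 lower and 3123 higher with limma, against 1749 lower and 1550 higher. The median log2 fold change was -1.88 over the members, -0.96 over the fitted rows of the study's list and 0.03 over all fitted genes. Together the members took 0.422%, 0.428% and 0.422% of the expected counts in Δ*TP05746* and 0.785%, 0.777% and 0.787% in Δ*TpKu70*.

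The plot of log2 fold changes by role shows amine, fatty acid, and carbonyl, quinone and flavin enzymes with no fitted member above 0, and the cytochrome P450 genes with 3 of 4 above it. The CPM ranges of the strains did not overlap in 50 of the 51 members, 38 with Δ*TP05746* below and 12 above. Over all fitted genes 62% did not overlap, 29.9% with Δ*TP05746* below and 32.1% above. On FPKM, which carries no TMM factor, the ranges overlapped in 7 of the 51: *TP00885*, *TP01983*, *TP02693*, *TP04227*, *TP04338*, *TP05252* and *TP05647*. The members were chosen on a fold change of FPKM, and the share over all fitted genes was not computed on that scale. Nothing is therefore read from how many members were without overlap on FPKM. No fitted member changed sign in any of the 14 alternative fits it entered. Of the 48 members past the threshold, 32 passed it in every alternative fit they entered: 25 entered all 14, and 7 did not reach the stricter FPKM minimum of 5 used in 1 of them. At the edge of the fold minimum, *TP00686* (-1.13) and *TP01161* (-1.15) lay just inside it, and *TP04338* (-0.99) and *TP04115* (0.94) just outside.

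**Figure D1:**
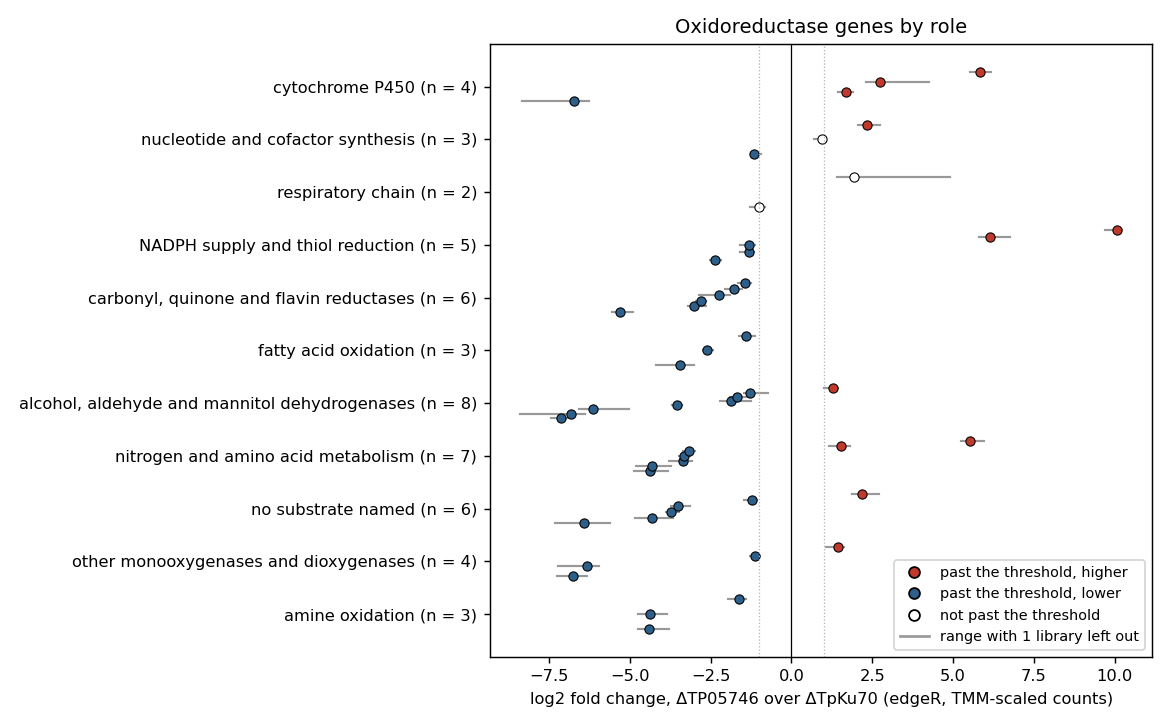
The log2 fold change of each fitted oxidoreductase gene, Δ*TP05746* over Δ*TpKu70*, is plotted by role (1 point per gene, n genes in brackets), with grey lines for the range when 1 library is left out and dotted lines at the fold minimum. The 37 blue points lie between -7.14 and -1.13; the point at 10.07 is *TP03877*, which had no counts in Δ*TpKu70*, so that its position depends on the fit's prior count.

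The alcohol, aldehyde and mannitol dehydrogenases made up the largest role group with all members fitted: 7 of 8 were lower in Δ*TP05746* and 1 was higher. All 6 members annotated as alcohol dehydrogenases, enzymes that interconvert alcohols and aldehydes, were lower, by log2 values of -1.69 to -7.14. The largest change was that of *TP04080*, with 7.66, 5.78 and 6.34 CPM in Δ*TP05746*, against 509, 966 and 1319 CPM in Δ*TpKu70* (log2 fold change -7.14, SE 0.48). Each Δ*TpKu70* library of *TP04080* was far above every Δ*TP05746* library, with replicate 1 the lowest of the parent.

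*TP01948* was at 80.8 ± 10.7 CPM in Δ*TP05746*, against 942 ± 193 CPM in Δ*TpKu70* (SD, n = 3 each; log2 fold change -3.54). *TP03630* had a total of 1 count over the Δ*TP05746* libraries and 24, 38 and 38 counts in the Δ*TpKu70* libraries, a ratio of pooled CPM of 0.00632 (95% exact interval 0.000158 to 0.036, counting error only). *TP00137* had 0.373, 1.23 and 1.45 CPM in Δ*TP05746*, against 152, 22.3 and 46.4 CPM in Δ*TpKu70* (log2 fold change -6.14). In *TP00137* it was replicate 1 of the parent that stood highest, the opposite of *TP04080*. *TP02693* (log2 fold change -1.88) and *TP04977* (-1.69) had the smallest changes of the 6 and were not past the threshold with library totals or on log2(FPKM + 1). The call of *TP02693* was also lost without Δ*TP05746* replicate 1 or 3, and its log2 fold change was -1.24 to -2.21 with 1 library left out.

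*TP00885*, annotated as formaldehyde dehydrogenase, an enzyme that oxidizes formaldehyde bound to a thiol, had the highest mean CPM of the group (CPM is not scaled by gene length). It had 527, 514 and 402 CPM in Δ*TP05746*, against 1892, 781 and 809 CPM in Δ*TpKu70* (log2 fold change -1.27, SE 0.41). Much of the distance came from replicate 1 of the parent: without it the log2 fold change was -0.73, and the call was also lost without each of the Δ*TP05746* replicates (-1.16 to -1.34). It was lost as well with limma on log2(FPKM + 1) or log2(FPKM + 0.1) (both -0.42), with library totals (-0.52) and with no filter (-1.24). *TP05128*, a mannitol dehydrogenase that interconverts mannitol and a ketose, was the 1 member of the group that was higher, at 24.0 ± 2.75 CPM in Δ*TP05746* and 9.94 ± 3.28 CPM in Δ*TpKu70* (SD, n = 3 each; log2 fold change 1.28). Its call was lost without Δ*TP05746* replicate 1 or 2, and its log2 fold change was 1.01 to 1.44 with 1 library left out.

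**Figure D2:**
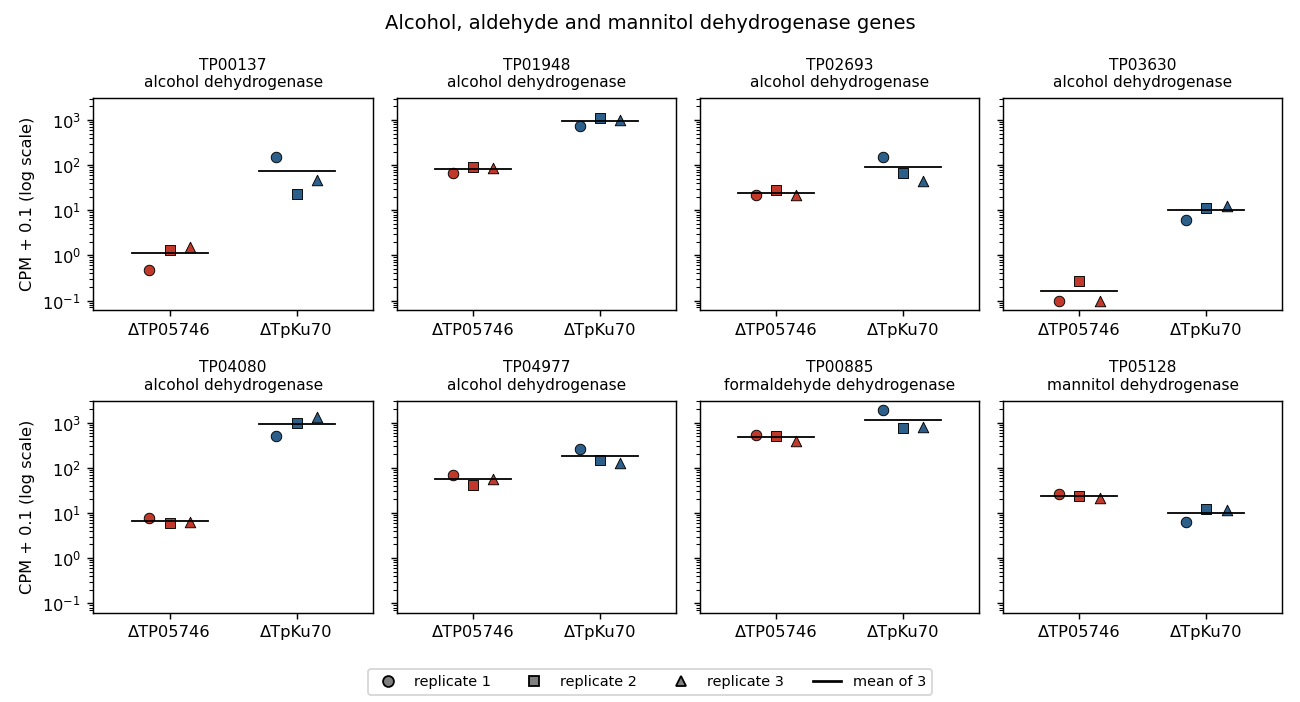
CPM (log axis, with 0.1 added) of the 8 alcohol, aldehyde and mannitol dehydrogenase genes is shown in each library of Δ*TP05746* (left) and Δ*TpKu70* (right), with lines at the mean of 3. *TP04080* and *TP03630* had the widest gaps between the strains, and in *TP00137*, *TP02693*, *TP04977* and *TP00885* the round symbol of Δ*TpKu70* replicate 1 lies highest.

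Around these enzymes, 3 partner genes of the same list were fitted and all were lower in Δ*TP05746*. *TP03114*, a pyruvate decarboxylase, which makes the acetaldehyde that alcohol dehydrogenase reduces to ethanol, had 57.9, 45.0 and 64.5 CPM in Δ*TP05746*, against 337, 346 and 393 CPM in Δ*TpKu70* (log2 fold change -2.68). A second pyruvate decarboxylase gene, *TP02411*, was at 3.92 ± 2.29 CPM in Δ*TP05746* and 4603 ± 720 CPM in Δ*TpKu70* (SD, n = 3 each), with decimals in its counts. *TP05570* is isocitrate lyase, an enzyme of growth on carbon sources such as ethanol and fatty acids. It had 115, 68.1 and 115 CPM in Δ*TP05746*, against 1106, 359 and 419 CPM in Δ*TpKu70*. Replicate 1 of the parent was the highest, and the log2 fold change of -2.66 was -1.98 to -2.94 with 1 library left out. The partners, like the members, come from the list chosen on these libraries and are not independent evidence of a direction.

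Among the 7 fitted genes of nitrogen and amino acid metabolism, 5 were lower in Δ*TP05746* and 2 were higher. The highest mean CPM was that of *TP01181*, cysteine dioxygenase, which oxidizes the thiol of cysteine. It had 146, 92.6 and 154 CPM in Δ*TP05746*, against 873, 1171 and 1498 CPM in Δ*TpKu70* (log2 fold change -3.17, SE 0.34). The 3 parental libraries all lay above the 3 mutant ones by a wide margin. On FPKM, which allows a comparison between genes, *TP01181* was the highest of all members in Δ*TpKu70* at 1361 ± 196, and it was at rank 3 in Δ*TP05746* at 253 ± 58.9 (SD, n = 3 each).

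All 3 members annotated for the breakdown of proline were lower. In *Aspergillus nidulans*, PrnD is the proline oxidase and PrnC the dehydrogenase that turns its product into glutamate. The proline oxidase *TP04609* had 8.48, 6.40 and 5.68 CPM in Δ*TP05746*, against 24.0, 168 and 232 CPM in Δ*TpKu70* (log2 fold change -4.36). The second gene of that annotation, *TP04610*, had 10.7, 11.3 and 14.6 CPM in Δ*TP05746*, against 38.8, 279 and 406 CPM in Δ*TpKu70* (log2 fold change -4.30). In both, Δ*TpKu70* replicate 1 lay between the mutant libraries and the other parental ones. Their counts had decimals, so their reads may have been split between them or with other gene models.

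*TP03548*, the PrnC gene, had whole counts in all libraries, with 47.1, 64.8 and 83.9 CPM in Δ*TP05746*, against 229, 914 and 874 CPM in Δ*TpKu70* (log2 fold change -3.36). Its replicate 1 of the parent was intermediate as well. *TP03994*, a permease that takes up proline and a partner of this group, had 55.6, 43.8 and 46.4 CPM in Δ*TP05746*, against 542, 1608 and 1827 CPM in Δ*TpKu70* (log2 fold change -4.77). Δ*TpKu70* replicate 1 was the lowest of the parental libraries in each of these 4 genes, as it was in 65.6% of all genes lower past the threshold. What set that library apart was not tested.

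*TP01664*, a glutamate dehydrogenase, which links glutamate to ammonium and the citric acid cycle, was at 115 ± 28.8 CPM in Δ*TP05746* and 1146 ± 91.8 CPM in Δ*TpKu70* (SD, n = 3 each; log2 fold change -3.32). Here the parental libraries lay close together. A partner annotated as a homolog of Gdh1, the name of a glutamate dehydrogenase in yeast, changed the other way: *TP01567* was at 249 ± 6.04 CPM in Δ*TP05746* and 5.46 ± 3.38 CPM in Δ*TpKu70* (SD, n = 3 each; log2 fold change 5.54). Both genes had counts with decimals.

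The 2 higher members of the group were both of low CPM. *TP03664*, annotated as the large subunit of aminoadipate-semialdehyde dehydrogenase, an enzyme of fungal lysine synthesis, had 17.2, 17.0 and 22.7 CPM in Δ*TP05746*, against 0.246, 0.595 and 0.327 CPM in Δ*TpKu70* (log2 fold change 5.53, SE 0.43). *TP03943*, nitrite reductase, which makes ammonium from nitrite, was at 6.82 ± 2.59 CPM in Δ*TP05746* and 2.39 ± 1.05 CPM in Δ*TpKu70* (SD, n = 3 each; log2 fold change 1.52), and its call was lost when any 1 of the 6 libraries was left out (1.17 to 1.79). *TP03942*, a nitrate transporter and partner, went the other way, with a total of 2 counts in Δ*TP05746*, against 66, 48 and 41 counts in Δ*TpKu70* (ratio of pooled CPM 0.00816, 95% exact interval 0.000979 to 0.03, counting error only). Of the 7 partners of this group, 3 were higher and 4 were lower, and *TP00518*, *TP02812* and *TP03160* among them were not past the threshold in 7, 6 and 3 alternative fits.

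**Figure D3:**
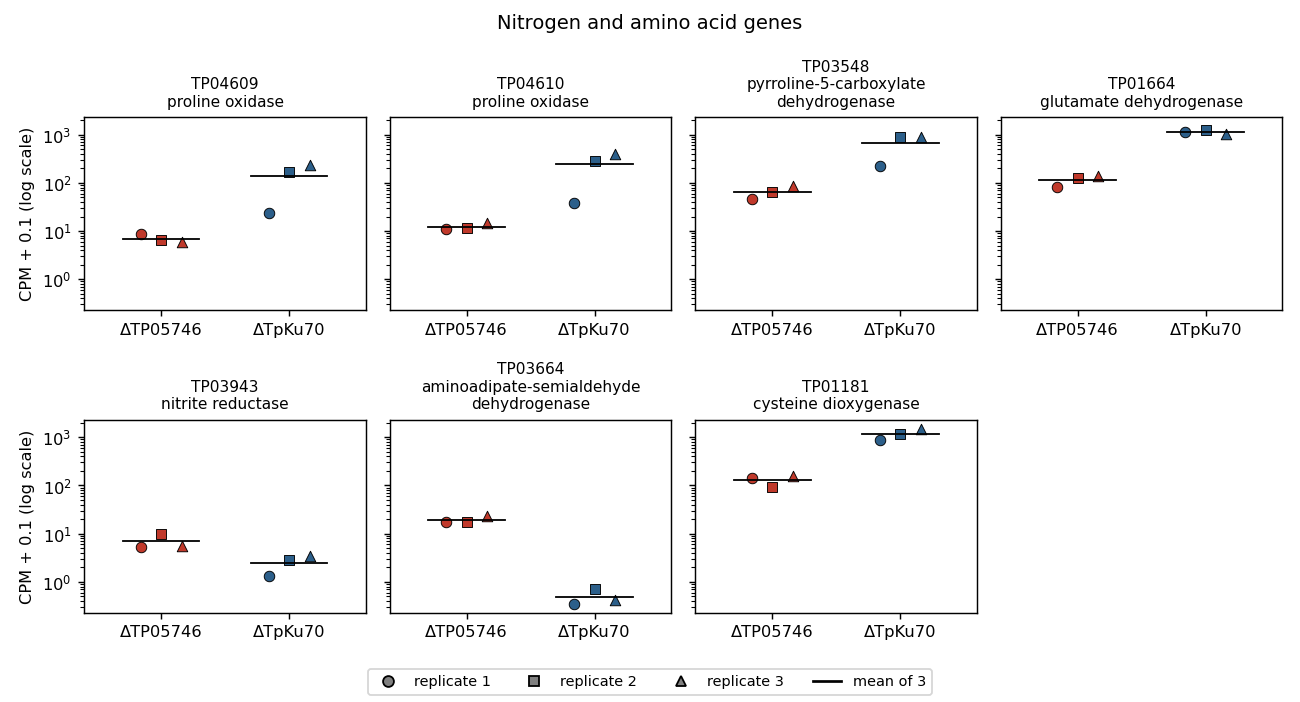
CPM (log axis, with 0.1 added) of the 7 nitrogen and amino acid genes is shown in each library of Δ*TP05746* (left) and Δ*TpKu70* (right), with lines at the mean of 3. In *TP04609*, *TP04610* and *TP03548* replicate 1 of Δ*TpKu70* (round) lies below replicates 2 and 3, whereas the parental libraries of *TP01664* lie close together.

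All 3 amine oxidation members were lower in Δ*TP05746*. *TP04051*, a copper amine oxidase, which releases ammonium and an aldehyde from primary amines, had 2.99, 6.48 and 5.07 CPM in Δ*TP05746*, against 177, 81.2 and 51.3 CPM in Δ*TpKu70* (log2 fold change -4.40, SE 0.57). *TP00947*, a flavin-containing polyamine oxidase, was at 0.360 ± 0.179 CPM in Δ*TP05746* and 7.97 ± 4.39 CPM in Δ*TpKu70* (SD, n = 3 each; log2 fold change -4.37). In both, Δ*TpKu70* replicate 1 was the highest library, the reverse of its place among the proline genes.

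*TP05252*, annotated as gamma-glutamylputrescine oxidoreductase, an enzyme of putrescine breakdown in bacteria, had 45.4, 31.3 and 33.3 CPM in Δ*TP05746*, against 56.7, 136 and 145 CPM in Δ*TpKu70* (log2 fold change -1.62). The ranges lay near each other, and the call was lost with library totals (-0.74) and with limma on log2(FPKM + 1) (-0.76) or log2(FPKM + 0.1) (-0.78). Leaving out Δ*TP05746* replicate 2 (-1.52) or 3 (-1.55) ended it too. Both partners of this group, polyamine transporters, were higher in Δ*TP05746*: *TP04759* was at 325 ± 71.8 CPM in Δ*TP05746* and 12.1 ± 5.37 CPM in Δ*TpKu70* (SD, n = 3 each; log2 fold change 4.73), and the log2 fold change of *TP00803* was 2.98.

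The fatty acid oxidation members were 3 and all were lower. *TP04687*, an acyl-CoA oxidase, which starts the shortening of fatty acids in peroxisomes, had 46.1, 52.5 and 64.2 CPM in Δ*TP05746*, against 274, 402 and 311 CPM in Δ*TpKu70* (log2 fold change -2.60, SE 0.24). A second acyl-CoA oxidase gene, *TP00671*, was at 2.73 ± 0.742 CPM in Δ*TP05746* and 7.24 ± 2.24 CPM in Δ*TpKu70* (SD, n = 3 each; log2 fold change -1.40, not past the threshold in 7 alternative fits, and -1.13 to -1.63 with 1 library left out). *TP02557*, annotated as a cyclooxygenase, an enzyme that adds oxygen to unsaturated fatty acids, had 1.68, 0.70 and 0.362 CPM in Δ*TP05746*, against 7.64, 7.44 and 15.7 CPM in Δ*TpKu70* (log2 fold change -3.45). Its counts were 9 or fewer in each Δ*TP05746* library.

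Among the 5 genes for NADPH supply and thiol reduction, 3 were lower in Δ*TP05746* and 2 were higher. *TP03723*, of the highest mean CPM, is annotated as glutathione reductase, which keeps glutathione reduced at the cost of NADPH. It had 197, 219 and 224 CPM in Δ*TP05746*, against 846, 1084 and 1366 CPM in Δ*TpKu70* (log2 fold change -2.36, SE 0.26). The libraries of Δ*TP05746* lay within a narrow range and all below the parental ones. *TP01983*, annotated as a methionine sulfoxide reductase, which repairs oxidized methionine, was at 159 ± 52.6 CPM in Δ*TP05746* and 390.3 ± 97.0 CPM in Δ*TpKu70* (SD, n = 3 each; log2 fold change -1.30), and was not past the threshold in 5 alternative fits, among them those without Δ*TP05746* replicate 2 or 3. With 1 library left out its log2 fold change was -1.12 to -1.60.

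*TP03877* and *TP04227* carry the name of phosphogluconate dehydrogenase, the pentose phosphate pathway enzyme that produces NADPH, and they moved in opposite directions. *TP03877* had 42.0, 18.8 and 28.2 CPM in Δ*TP05746* and 0 in all Δ*TpKu70* libraries, so it was at least 34.1-fold higher in Δ*TP05746* against a floor of 3 counts per library. *TP04227* was at 18.3 ± 5.76 CPM in Δ*TP05746* and 44.9 ± 7.36 CPM in Δ*TpKu70* (SD, n = 3 each; log2 fold change -1.30), and was not past the threshold in 3 alternative fits. Both had counts with decimals, so their reads may have been split with other gene models.

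The second higher gene of the group was *TP00242*, ferredoxin-NADP reductase, which exchanges electrons between ferredoxin and NADP(H), with 364, 452 and 531 CPM in Δ*TP05746*, against 3.45, 10.7 and 4.90 CPM in Δ*TpKu70* (log2 fold change 6.15). On FPKM it was at rank 2 of all members in Δ*TP05746*, at 254 ± 52.3, and was at 2.11 ± 1.2 in Δ*TpKu70* (SD, n = 3 each). Of its 6 fitted partners in this role, 3 were higher and 3 were lower. *TP01914*, glutathione synthetase, the last step of glutathione synthesis, had 34.4, 42.7 and 35.9 CPM in Δ*TP05746*, against 1.72, 0.893 and 0.653 CPM in Δ*TpKu70* (log2 fold change 5.03). Among 4 fitted glutathione S-transferase genes, which attach glutathione to other compounds, *TP03539* and *TP02698* were higher and *TP05142* and *TP05408* were lower. *TP03539* had 0 counts in all Δ*TpKu70* libraries and decimals in its counts. *TP05142* had a total of 2 counts in Δ*TP05746* and 27 in Δ*TpKu70*. The call of *TP02698* was lost when any 1 library was left out (log2 fold change 1.08 to 1.94, against 1.70). That of *TP05408* (-1.23) was lost in 6 alternative fits, among them library totals (-0.39) and those without Δ*TP05746* replicate 2 or 3 (-1.15 to -1.37 with 1 library left out). The partner *TP05445*, a superoxide dismutase, was lower (-1.38) but not past the threshold in 9 alternative fits (-0.50 with library totals, -1.01 to -1.78 with 1 library left out).

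Of the 4 fitted cytochrome P450 genes, 3 were higher in Δ*TP05746* and 1 was lower. These enzymes insert oxygen into a wide range of substrates with electrons from NADPH. *TP03127* had the highest mean CPM, with 179, 179 and 152 CPM in Δ*TP05746*, against 3.20, 4.17 and 1.31 CPM in Δ*TpKu70* (log2 fold change 5.85, SE 0.38). *TP05075* was at 47.0 ± 8.90 CPM in Δ*TP05746* and 14.5 ± 4.78 CPM in Δ*TpKu70* (SD, n = 3 each; log2 fold change 1.68). In both, no parental library reached the lowest mutant one.

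*TP02887* had 173, 143 and 118 CPM in Δ*TP05746*, against 49.8, 8.03 and 6.86 CPM in Δ*TpKu70* (log2 fold change 2.73, SE 0.77). Replicate 1 of the parent lay well above the other two: the log2 fold change was 4.26 without it, and the call was lost without any 1 of the other 5 libraries (2.31 at the lowest). *TP03310*, named for induction by alkanes in the annotation, had a total of 1 count in Δ*TP05746*, against 21, 44 and 30 counts in Δ*TpKu70* (ratio of pooled CPM 0.00665, 95% exact interval 0.000167 to 0.038, counting error only). *TP03311*, whose number follows it, did not reach the FPKM minimum, with 1.31, 0.876 and 1.45 CPM in Δ*TP05746* and 1.48, 8.03 and 9.47 CPM in Δ*TpKu70*.

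Among the other monooxygenases and dioxygenases, 3 of 4 fitted genes were lower and 1 was higher. *TP00352*, a monooxygenase with no substrate in its annotation, had 5.41, 1.75 and 4.71 CPM in Δ*TP05746*, against 91.7, 660 and 546 CPM in Δ*TpKu70* (log2 fold change -6.77, SE 0.92). *TP05354*, a catechol dioxygenase, which opens aromatic rings, was at 0.533 ± 0.457 CPM in Δ*TP05746* and 45.7 ± 21.8 CPM in Δ*TpKu70* (SD, n = 3 each; log2 fold change -6.33). Δ*TpKu70* replicate 1 was the lowest parental library of both. *TP00686*, annotated by the plant enzyme that makes ethylene, had a log2 fold change of -1.13, was not past the threshold in 7 alternative fits, and was at -0.98 to -1.29 with 1 library left out.

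The higher gene of this group was *TP01085*, of the family of oxygenases that use oxoglutarate and iron, at 51.6 ± 21.0 CPM in Δ*TP05746* and 19.0 ± 2.93 CPM in Δ*TpKu70* (SD, n = 3 each; log2 fold change 1.44). Another 2 monooxygenase genes, *TP01839* and *TP05888*, did not reach the FPKM minimum and had at most 13 counts in any library.

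All 6 fitted carbonyl, quinone and flavin reductases were lower in Δ*TP05746*. *TP02279*, an aldo-keto reductase, which reduces aldehydes and ketones with NADPH, had 17.9, 11.6 and 16.3 CPM in Δ*TP05746*, against 99.5, 97.9 and 123 CPM in Δ*TpKu70* (log2 fold change -2.81, SE 0.23). *TP01883*, of the isoflavone reductase family, had 1.68, 0.525 and 1.81 CPM in Δ*TP05746*, against 46.3, 46.4 and 66.6 CPM in Δ*TpKu70* (log2 fold change -5.29, SE 0.45). In these 2 genes the parental libraries lay close together.

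The quinone oxidoreductases *TP03897* (log2 fold change -3.01) and *TP02073* (-1.44), which reduce quinones with NAD(P)H, were at most at 5.91 and 20.3 CPM in any library. *TP03897* had at most 3 counts in any Δ*TP05746* library. *TP05241*, a ketoreductase (-1.77), and *TP00324*, an FMN reductase (-2.26), were lower too. *TP05241* was not past the threshold in 2 alternative fits. *TP02073* was not in 6, with -1.26 to -1.64 when 1 library was left out, and *TP00324* was not in 8, with -1.89 to -2.87. *TP03555*, a carbonyl reductase, and *TP04650*, an aldo-keto reductase, did not reach the FPKM minimum. *TP03555* averaged 0.0584 ± 0.101 CPM in Δ*TP05746* and 3 ± 2.14 CPM in Δ*TpKu70*, and *TP04650* averaged 0.366 ± 0.374 CPM in Δ*TP05746* and 6.04 ± 4.22 CPM in Δ*TpKu70* (SD, n = 3 each).

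The 3 nucleotide and cofactor genes shared no direction: 1 was higher, 1 was lower and 1 was not past the threshold. *TP04100*, the small subunit of ribonucleotide reductase, the enzyme that makes the building blocks of DNA, had 226, 275 and 261 CPM in Δ*TP05746*, against 77.1, 44.0 and 31.0 CPM in Δ*TpKu70* (log2 fold change 2.32, SE 0.35). All mutant libraries were above all parental ones, and replicate 1 of Δ*TpKu70* was the nearest to them. Of the 2 genes named for pyridoxamine phosphate oxidase, which makes the active form of vitamin B6, *TP01161* was at 89.2 ± 4.47 CPM in Δ*TP05746* and 198 ± 46.0 CPM in Δ*TpKu70* (SD, n = 3 each; log2 fold change -1.15), past the threshold but not in 4 alternative fits, among them that without Δ*TpKu70* replicate 3 (-0.95 to -1.25 with 1 library left out). *TP04115* was at 121 ± 31.8 CPM in Δ*TP05746* and 62.7 ± 11.4 CPM in Δ*TpKu70* (SD, n = 3 each; log2 fold change 0.94), under the fold minimum. With limma on log2(FPKM + 1) its log2 fold change was 1.64 and past the threshold, and with library totals it was 1.76.

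Of the 2 fitted respiratory chain members, 0 passed the threshold in edgeR's test, where 1 had an unadjusted p under 0.05, while DESeq2 and limma on log2(FPKM + 1) called 1 each. *TP04338*, a subunit of NADH-ubiquinone oxidoreductase, the entry point of electrons from NADH, had 198, 234 and 249 CPM in Δ*TP05746*, against 259, 544 and 549 CPM in Δ*TpKu70* (log2 fold change -0.99, SE 0.33). It was -0.11 with library totals and -0.18 with limma on log2(FPKM + 1), and past the threshold with DESeq2 or median-ratio factors (both -1.02), with the FPKM minimum of 5 (-1.07) and without replicate 1 of the parent (-1.28). *TP05023*, a cytochrome c oxidase polypeptide, had 0.751, 0.426 and 1.36 CPM in Δ*TP05746* and 0.596, 0.0833 and 0 CPM in Δ*TpKu70*, the only fitted member whose ranges overlapped. Its log2 fold change of 1.92 (SE 1.06) was 4.90 and past the threshold without replicate 1 of the parent. *TP01617* and *TP04159*, subunits of complexes of the chain, had at most 6.03 counts in any library and were not fitted.

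The partners of the respiratory chain did not share 1 direction either. *TP00964*, annotated as a cytochrome b, had 3.17, 1.23 and 1.45 CPM in Δ*TP05746*, against 131, 470 and 298 CPM in Δ*TpKu70* (log2 fold change -7.25). *TP05003*, cytochrome c, which carries electrons to the terminal oxidase, had 522, 308 and 273 CPM in Δ*TP05746*, against 70.0, 97.3 and 67.9 CPM in Δ*TpKu70* (log2 fold change 2.23).

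Of the 6 genes whose annotation names no substrate, 5 were lower in Δ*TP05746* and 1 was higher. *TP05451* had 1.99, 1.76 and 2.49 CPM in Δ*TP05746*, against 6.61, 46.0 and 76.0 CPM in Δ*TpKu70* (log2 fold change -4.32, SE 0.87). Its counts had decimals. *TP04990*, annotated as an NADH oxidoreductase, had 0.747, 0.350 and 0 CPM in Δ*TP05746*, against 61.1, 17.3 and 20.3 CPM in Δ*TpKu70* (log2 fold change -6.40, SE 0.93). Replicate 1 of the parent was the lowest of its strain in *TP05451* and the highest in *TP04990*. *TP05046* (log2 fold change -3.73), *TP04951* (-3.50) and *TP05647* (-1.22, not past the threshold in 8 alternative fits and -1.05 to -1.45 with 1 library left out) were lower, and *TP01082* (2.18) was higher. *TP04951* had at most 3 counts in any Δ*TP05746* library.

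The heatmap of all fitted members shows each library beside the others. The pattern within Δ*TP05746* was even: the median ratio of the highest to the lowest library of a member was 1.55 there, against 2.1 in Δ*TpKu70*. Over all fitted genes these medians were 1.36 in Δ*TP05746* and 1.76 in Δ*TpKu70*. Of the 37 lower members, Δ*TpKu70* replicate 1 was the lowest parental library in 22, the middle one in 6 and the highest in 9, while over all genes lower past the threshold it was the lowest in 65.6%, the middle in 12.2% and the highest in 22.2%.

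**Figure D4:**
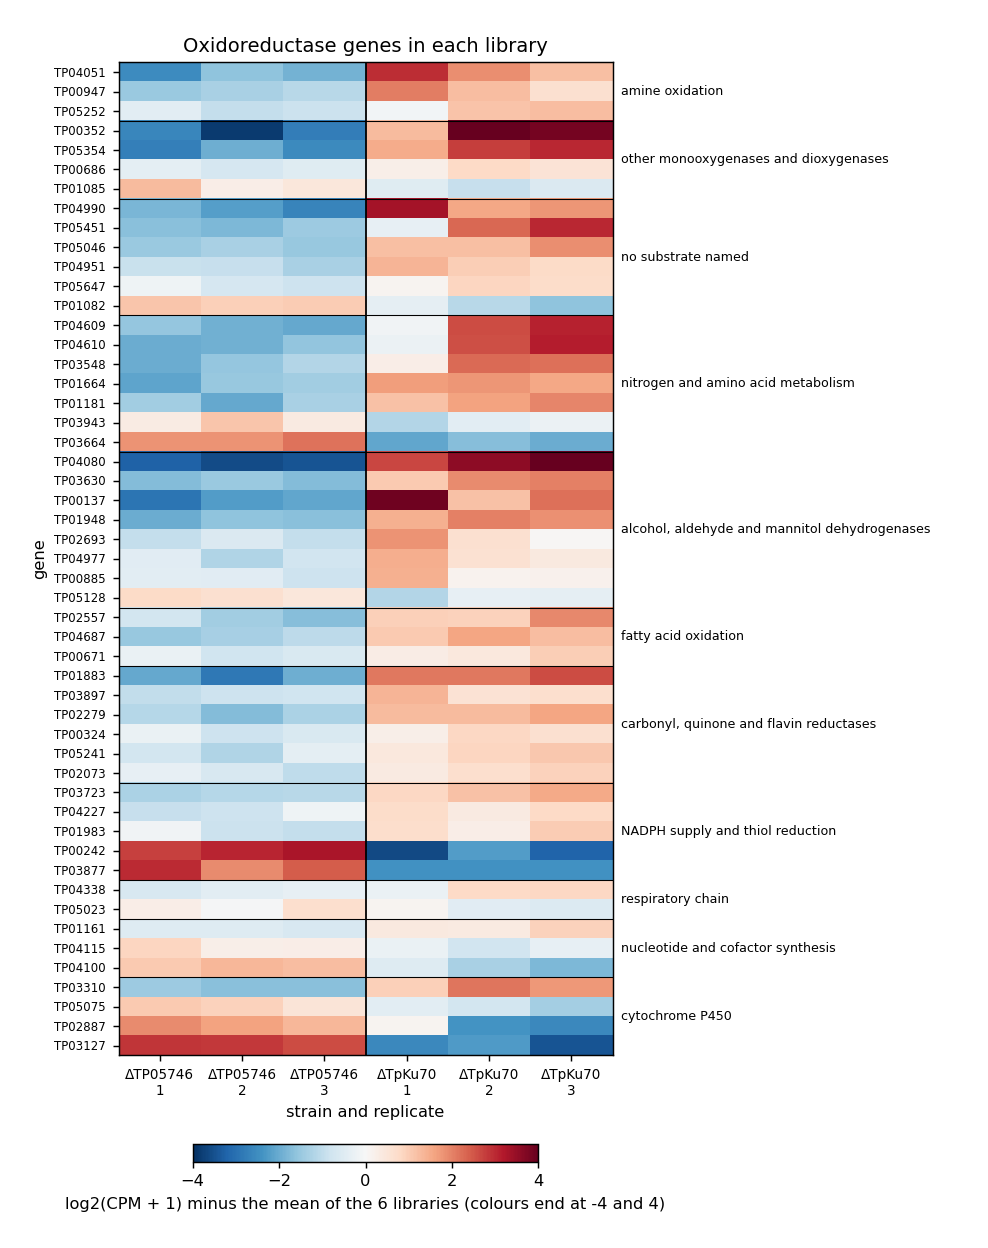
Each row is a fitted oxidoreductase gene and each column a library, Δ*TP05746* left of Δ*TpKu70*; the colour is log2(CPM + 1) minus the mean of the 6 libraries, red above it and blue below. The amine, proline and alcohol genes are blue in Δ*TP05746*, and *TP00242*, *TP03877*, *TP03127* and *TP02887* are red.

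How far Δ*TpKu70* replicate 1 lay from the other parental libraries differed between members. The log2 ratio of its CPM to the mean of replicates 2 and 3 was -3.06 for *TP04609*, -3.14 for *TP04610*, -3.21 for *TP05451* and -2.72 for *TP00352*. It was 2.74 for *TP02887*, 2.15 for *TP00137*, 1.70 for *TP04990* and 1.42 for *TP04051*. Replicate 1 lay between the mutant range and the other parental libraries in 29 of the 50 members without overlap (58.0%), against 59.8% over all fitted genes without overlap. With replicate 1 left out, 37 members were lower and 12 were higher. Among the fits with 1 library left out, calls of both directions together were fewest without Δ*TP05746* replicate 2 or 3. Without replicate 2 of that strain 29 members were lower and 9 higher, and without its replicate 3 there were 28 and 10. *TP00324*, *TP00671*, *TP00686*, *TP01983*, *TP02073*, *TP05252* and *TP05647* were among those lost in both.

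**Figure D5:**
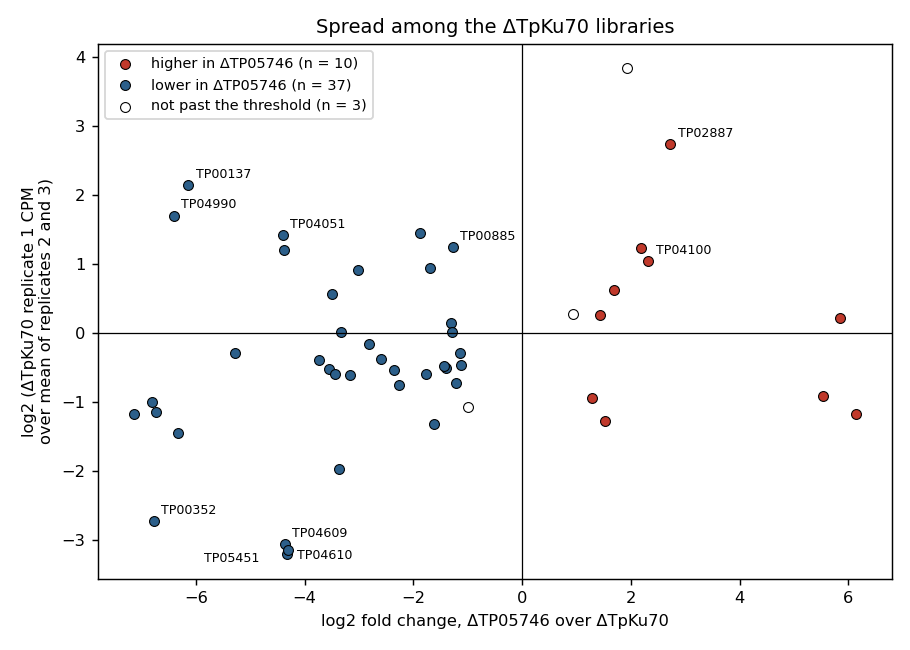
The log2 ratio of CPM in Δ*TpKu70* replicate 1 to the mean of Δ*TpKu70* replicates 2 and 3 is plotted against the log2 fold change, Δ*TP05746* over Δ*TpKu70*, for 50 of the 51 fitted members (*TP03877* had no counts in Δ*TpKu70*). Points lie from -3.21 to 3.84 on the vertical axis, on both sides of 0 among the lower as well as among the higher members.

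In level per gene length, the members were below the typical fitted gene in Δ*TP05746*, with a median of mean FPKM of 11.3, against 19.1 over all fitted genes, and above it in Δ*TpKu70*, with 20 against 11.7. The members were chosen on a fold change of FPKM between these strains, so nothing is read from these positions. FPKM carries no TMM factor, and the median over all fitted genes itself differed between the strains. In Δ*TP05746* the highest were *TP00885* (420 ± 58.4), *TP00242*, *TP01181*, *TP01983* (251 ± 70.3) and *TP04100* (205 ± 27.7), and in Δ*TpKu70* they were *TP01181*, *TP00885* (641 ± 440), *TP04080* (498 ± 165), *TP03723* (436 ± 51.2) and *TP01983* (377 ± 92.1; all mean FPKM ± SD, n = 3). *TP00885* and *TP01983* overlapped between the strains on FPKM, so the strains did not separate in these 2 genes on that scale.

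The short-chain dehydrogenases that the rule left out are oxidoreductases of the same list, and 18 of the 20 fitted were lower in Δ*TP05746* and 2 were higher. Over all fitted genes 20.5% were lower and 18.2% higher, and over the fitted rows of the study's list 46.9% and 42.3%. Like the members, these genes were chosen on this contrast, so nothing is read from the difference.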

How the data were processed

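Total RNA of 6 libraries was sequenced on an Illumina HiSeq system. Reads were mapped by the authors to the genome of strain 1-95, and their notes to the database list RSEM 1.2.12, DESeq2, Bowtie2 2.1.0 and BWA 0.7.10-r789 as tools. The expected counts that the authors deposited are unscaled RSEM estimates. The FPKM values deposited beside them are scaled by gene length and library size. Genes absent from a file were read as 0.

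Expected counts were rounded, the 8522 genes at FPKM 1 or above in 3 or more libraries were kept, scaled with TMM factors and fitted with edgeR 4.0.16 (quasi-likelihood test, two-sided, Benjamini-Hochberg adjustment over all genes kept) in R 4.3.3. CPM used the TMM-scaled library totals. Ratios of pooled counts have exact Clopper-Pearson intervals. An SE is the absolute log2 fold change over the square root of F. Alternatives used limma 3.58.1, with 1 or 0.1 added to FPKM, and DESeq2 1.42.0. Python 3.11.15, pandas 2.3.3 and matplotlib 3.10.9 were used for counts and plots. The test was also run on simulated counts in which 200 genes were changed, against 3299 genes past the threshold here. That setting differs from these data, so it does not check the calls given here. Depth was 4091718 to 4696455 expected counts per library, and intervals and floors cover counting error only.

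Members, roles and partner lists were chosen with earlier results of these data known. Within each role the member of highest mean CPM and that of largest change were given by library, as were genes alike in annotation, by value or range. *TP00137*, *TP00242*, *TP00964*, *TP01914*, *TP02887*, *TP03311*, *TP03548*, *TP03630*, *TP03994* and *TP05003* were given per library after their values were seen. So were partners beyond the largest change in each direction. The authors' own fold changes and p-values were not used. The reference table is from a different strain and shared no gene ID, hence coordinates and sequences are not reported.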

Additional observations from a re-analysis of the deposited data

How the results depend on the processing

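Against 37 members lower in Δ*TP05746*, 24 were lower past the threshold with limma on log2(FPKM + 1) and 24 when only library totals were used for scaling. With 1 library left out, 28 to 37 members were lower and 8 to 12 were higher, against 11, with the lowest counts of lower members without Δ*TP05746* replicate 3 (28) or 2 (29). The other alternatives stayed within 1.5 times of both counts, among them DESeq2 (38 lower, 11 higher), no filter (38 and 10), an FPKM minimum of 5 (29 and 10), and, chosen after seeing the data, only members with whole counts (28 and 10). With the replicate number as a block, 30 members were lower and 9 were higher, and *TP00885* (-1.15), *TP05252* (-1.54), *TP05128* and the partner *TP02698* were among the genes not past the threshold. The numbers do not pair the libraries: deviations of same-numbered libraries correlated at -0.08, -0.04 and 0.01. Of the 48 members past the threshold, 16 lost the call in at least 1 alternative fit. Among the 20 members that the naming rule picked, 15 alternative values lost the call, 9 of *TP00885* and 6 of *TP05252*, and 6 gained it. Why calls were lost was not tested. Over all fitted genes 2011 were lower and 2137 higher without Δ*TpKu70* replicate 1, against 1749 and 1550. Genes with few counts in 1 strain, and 14 members with decimals in their counts, have the least certain changes. These 14 were *TP01617*, *TP01664*, *TP01983*, *TP02693*, *TP03723*, *TP03877*, *TP04115*, *TP04159*, *TP04227*, *TP04609*, *TP04610*, *TP05023*, *TP05354* and *TP05451*.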
